A study of Mus musculus with 6 samples.

Results

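The tetraspanin family was examined in RNA of mouse sperm nuclei and whole sperm. Members were taken by symbol: every Tspan gene with a number, together with Cd9, Cd37, Cd53, Cd63, Cd81, Cd82, Cd151, the uroplakins Upk1a and Upk1b, and the photoreceptor genes Prph2 and Rom1. The rule used symbols alone, but it was set with earlier results of these data known. It gave 31 of the 23229 annotated genes in the count tables. Of these, 28 had at least 1 count in some preparation, and 22 passed the filter on low counts and were tested. Rom1, Tspan10 and Tspan32 had no count in any preparation.

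All samples came from adult C57BL/6 mice of the transgenic line HP3.1, aged 4 months, whose sperm were taken from the cauda epididymis and vas deferens. What the HP3.1 transgene carries is not stated in the sources used here, and all groups share it. The sperm nuclei group held 2 preparations, nuclei 1 and nuclei 2, made by sonication and ultracentrifugation through sucrose and caesium chloride in the presence of the detergent Triton X-100. The whole-sperm group held 1 preparation, extracted in the same manner but without those steps, after a look under the microscope for other cells. Each preparation was sequenced in 2 runs, which were handled as combined, and the labels do not tie preparations to animals.

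Tetraspanins are small proteins that cross the membrane several times and gather integrins, immunoglobulin-family proteins and proteases into membrane domains. Several of them, CD9, CD63 and CD81 among these, are the usual protein markers of extracellular vesicles, and CD63 also marks late endosomes. In reproduction the family is best known from the egg, where Cd9 is needed for fusion with sperm and Cd81 adds to it. The epithelium of the epididymis sheds vesicles that meet sperm on their way through the duct.

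The depth, as counts on genes and assembled regions, was 5487306 for nuclei 1, 6648848 for nuclei 2 and 8316345 for whole sperm. Levels are given as CPM, the counts of a gene scaled to a common library size, with TMM factors, which correct for differences in library composition. Where 3 values of a gene follow each other, they stand for nuclei 1, then nuclei 2, then whole sperm. The whole-sperm group was a lone preparation without any measured spread, and adjusted p-values from edgeR's quasi-likelihood test rest on a spread between the nuclei preparations that was pooled over genes and may be technical. In bulk RNA of this kind, fewer cells of a type and less RNA per cell cannot be told apart. The cell type was checked with fixed marker lists. Of 15 spermatid and sperm markers, 14, 15 and 15 were detected in nuclei 1, nuclei 2 and whole sperm, with summed levels of 5503, 5452 and 3068 CPM. Markers of epididymal and vas deferens epithelium summed to 2662, 2722 and 16630 CPM in that order, and 12 of the 13 tested lay below 0 on the log2 scale of nuclei over whole sperm, of which Crisp1 alone passed the test (edgeR adjusted p = 0.0241). Lcn5, Lcn8 and Rnase10, genes of the proximal epididymis, had no count. Stromal and smooth muscle markers summed to 179, 97.9 and 165 CPM, and Des was at 0. The erythrocyte list summed to at most 0.600 CPM, and its 4 globin genes in the tables were at 0.

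Tetraspanin transcripts were scarce in each preparation and took a larger share of counts in whole sperm than in either nuclei preparation. The 31 genes together held 1465 counts in nuclei 1, or 0.0267% of the total (exact Clopper-Pearson 95% interval 0.0254% to 0.0281%). In nuclei 2 they held 1262 counts, or 0.0190% (0.0180% to 0.0201%), and in whole sperm 3060, or 0.0368% (0.0355% to 0.0381%). The 3 intervals did not overlap, but they cover counting error only, and the 2 nuclei preparations also differed from each other by more than this error. Epithelial markers, at 2662, 2722 and 16630 CPM, were also highest in whole sperm, and their part in the tetraspanin shares was not tested.

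No tetraspanin passed the test. The lowest adjusted p among the 22 tested members was 0.865, against 20 of 14397 tested genes called, or 0.139%, at a threshold of 0.05. At an unadjusted p under 0.05 the members also gave 0 of 22, against 5.44% of all tested genes. The direction of the fitted differences was uneven: 16 of 22 members (72.7%) had a log2 fold change of nuclei over whole sperm below 0, against 50.8% of all tested genes. Their median log2 fold change was -1.42, against -0.04 over all tested genes. Setting Tspan9, which had no nuclei count, at a floor of 3 counts per nuclei library left it below this median, so the median could not move. The members' median was -3.64 without nuclei 1, where that of all tested genes was -0.44, and -0.90 without nuclei 2, against -0.25. Spike-in scaling gave -2.86, against -1.48. Counts in 1 library could suffice to pass the filter on low counts, as for Tspan9 (0, 0 and 29 counts) and Tspan17 (23, 0 and 5). Without that filter, 18 of 28 members lay below 0, with a median of -1.16 against 0.01 over all genes. With a mean of at least 10 CPM, 6 of 10 lay below 0, with a median of -0.86 against -0.03. The share of all genes below 0 was not taken under these filter settings, so 18 of 28 and 6 of 10 have only the medians beside them. Among the 28 members with a count, both nuclei preparations lay below whole sperm in 16 (57.1%), against 40.9% of all genes with a count. Both lay above it in 2 (7.14%), Cd37 and Tspan1, against 23.2% of all genes with a count.

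**Figure D1:**
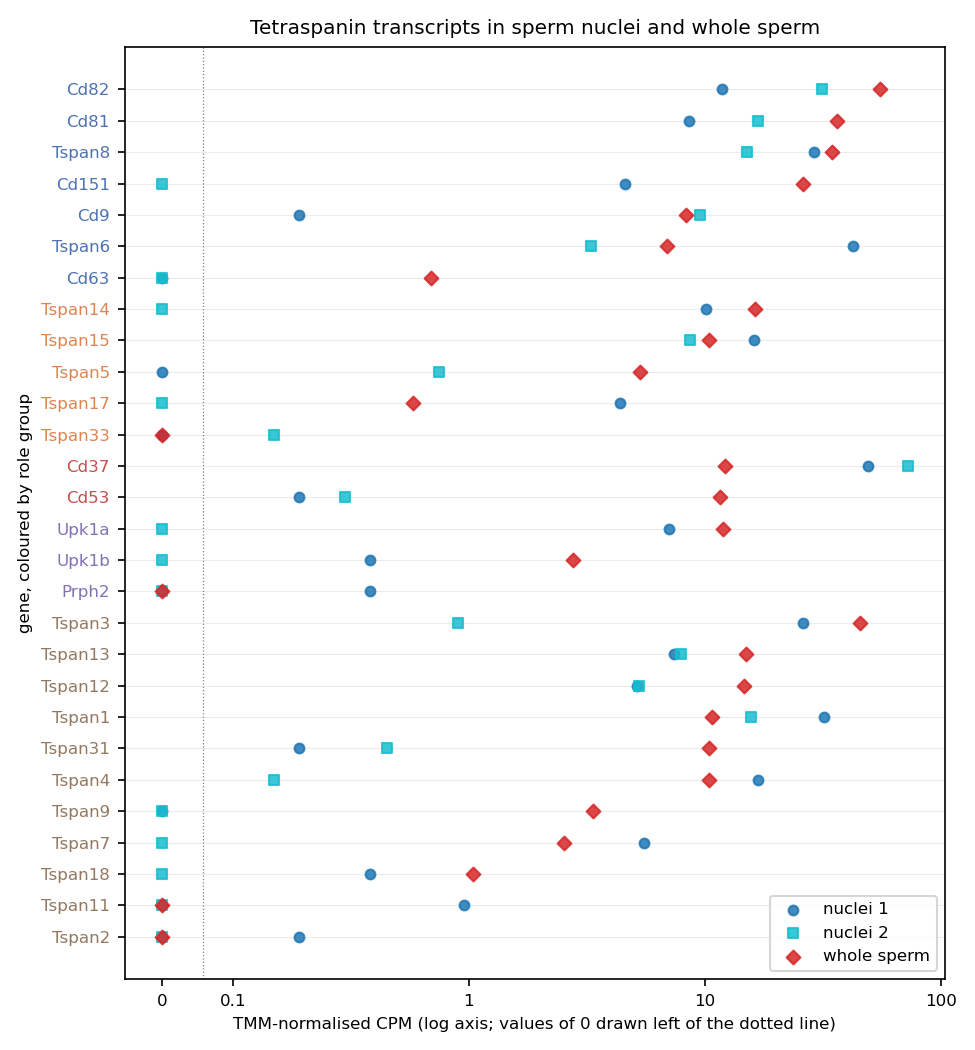
TMM-normalised CPM (log axis, with values of 0 drawn at the left) of the 28 tetraspanins with a count, 1 row per gene coloured by role group, 1 point per preparation. Whole sperm lies to the right of both nuclei preparations in 16 rows, and Cd37 and Tspan1 are the rows in which both nuclei preparations lie to its right.

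Among the vesicle and surface tetraspanins, 5 of the 6 tested members lay below 0, with a median log2 fold change of -1.06 and none called. Cd82 (build mm10, chr2:93419111-93463140), a membrane organiser known as a suppressor of metastasis, was counted 62 times in nuclei 1, 209 times in nuclei 2 and 479 times in whole sperm. These counts correspond to 11.8, 31.3 and 55.3 CPM, so the nuclei mean of 21.6 ± 13.8 (SD, n = 2) was 2.56-fold below whole sperm (log2 -1.36 ± 1.20 SE, edgeR adjusted p = 0.909). Both nuclei values lay below whole sperm. In CPM the gap between the nuclei preparations was nearly as wide as that between nuclei 2 and whole sperm. As a ratio it was the wider one, with nuclei 2 at 2.65-fold of nuclei 1.

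Cd81 (chr7:143052739-143067934), a common vesicle marker, had 45 and 112 counts in the nuclei preparations and 314 in whole sperm. Its levels were 8.59, 16.8 and 36.3 CPM, with a nuclei mean of 12.7 ± 5.80 (n = 2), 2.86-fold below whole sperm (log2 -1.51 ± 1.62, adjusted p = 0.909). Cd81 thus had the same order of preparations as Cd82. Tspan8 (chr10:115816832-115849893), an epithelial tetraspanin that binds integrins, had 153, 101 and 301 counts, or 29.2, 15.1 and 34.8 CPM (log2 -0.65 ± 1.40, adjusted p = 0.989). Here nuclei 1 came closer to whole sperm than to nuclei 2.

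Cd151 (chr7:141467392-141471473), the partner of laminin-binding integrins, was counted 24 times in nuclei 1, not once in nuclei 2 and 226 times in whole sperm. The corresponding levels were 4.58, 0 and 26.1 CPM (log2 -3.51 ± 2.75, adjusted p = 0.909), and the 3 counts that a value of 0 allows in nuclei 2 amount to 0.450 CPM. Both nuclei preparations thus lay well under whole sperm, but 1 of them rested on no read. Cd63 (chr10:128900989-128912822), the endosomal marker, had 6 counts in whole sperm and none in nuclei, and was not tested. Its whole-sperm level was 1.36-fold above a floor of 3 counts per nuclei library. That ratio makes no allowance for counting error in the 6 counts, so a lower level in nuclei was not shown. A processed pseudogene is annotated for Cd63 and another for Cd9, so reads of these 2 genes could have been split or lost in counting.

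Cd9 and Tspan6 had levels that depended on the nuclei preparation. Cd9 (chr6:125460266-125494791), the egg-side fusion factor, had 1 and 64 counts in the nuclei preparations and 72 in whole sperm, or 0.191, 9.59 and 8.32 CPM. Nuclei 2 was therefore close to whole sperm, while nuclei 1 lay 50.3-fold below nuclei 2 (counting interval 8.71 to 2016), and the fitted log2 fold change of -0.76 ± 3.93 (adjusted p = 1.0) averages over that split. Tspan6 (chrX:133891068-133898429), which acts in sorting at endosomes, showed the opposite order, with 222, 22 and 60 counts, or 42.4, 3.30 and 6.93 CPM (log2 1.72 ± 2.06, adjusted p = 0.909). Nuclei 1 was 12.9-fold above nuclei 2 (8.28 to 20.9), and whole sperm lay between them.

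**Figure D2:**
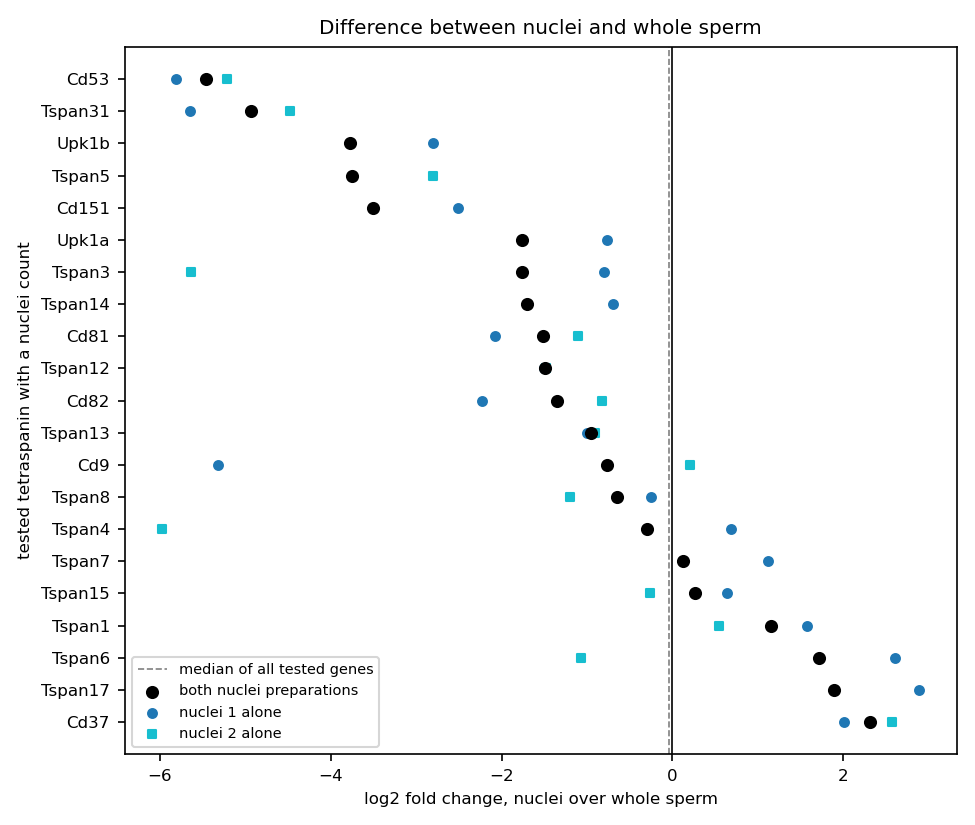
Log2 fold change of nuclei over whole sperm for the tested tetraspanins with a nuclei count, fitted with both nuclei preparations (black) or with 1 of them (blue and cyan, drawn only where that preparation had a count). Black points for 15 of the 21 genes drawn lie left of 0, and Cd9, Tspan4, Tspan6 and Tspan15 have single-preparation points on both sides of it.

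The blood cell tetraspanins Cd37 and Cd53 pointed in opposite directions. Cd37 (chr7:45233632-45239115), a B cell and leukocyte surface protein, was counted 258 times in nuclei 1, 485 times in nuclei 2 and 106 times in whole sperm. Its levels of 49.2, 72.7 and 12.2 CPM put both nuclei preparations above whole sperm, with a nuclei mean of 61.0 ± 16.6 (n = 2) and a 4.98-fold difference. The difference between fractions was larger than that between the nuclei preparations, but it did not pass the test over all features (log2 2.31 ± 1.19, unadjusted p = 0.0523, edgeR adjusted p = 0.865). Cd37 had the lowest adjusted p of the family. In the deposited RPKM its values were 8.89, 24.2 and 6.84, with nuclei 1 much nearer to whole sperm than in CPM, and limma on log2(RPKM + 0.1) gave a log2 difference of 1.09 ± 1.02 (adjusted p = 0.747). Scaling to the spike-ins gave log2 0.88, where the median of all tested genes was -1.48.

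Cd53 (chr3:106759921-106790149), present on most leukocytes, had 1 and 2 counts in the nuclei preparations and 101 in whole sperm, or 0.191, 0.300 and 11.7 CPM. Both nuclei values were under the level of 3 counts. Scaled to library size, whole sperm lay 46.3-fold above the pooled nuclei preparations (counting interval 15.4 to 228). The fitted difference was log2 -5.46 ± 5.09 (adjusted p = 0.909). Tspan32, a tetraspanin of blood-forming cells, was at 0.

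Leukocyte markers were measured beside these genes. Of 16 in the tables, 8, 11 and 13 were detected in nuclei 1, nuclei 2 and whole sperm, and their summed levels were 590, 269 and 138 CPM. Most of the sum in both nuclei preparations was Cx3cr1, a chemokine receptor of myeloid cells, at 490, 176 and 66.1 CPM (adjusted p = 0.388). Itgax, an integrin of dendritic cells, had 257, 505 and 81 counts (log2 2.74, adjusted p = 0.674), and its order of preparations was that of Cd37. Of the defining markers, Ptprc, the pan-leukocyte phosphatase, had 0, 24 and 65 counts, the opposite direction to Cd37. Of the B cell genes, Cd79a had 10 counts in nuclei 2 alone and Ms4a1 had 0, 6 and 11 counts. Of the 10 leukocyte markers tested, 6 lay below 0 (median log2 fold change -1.22), the opposite direction to the sum, and none was called. Csf1r and Fcer1g, genes of myeloid cells, had 57 and 77 counts in whole sperm and none in nuclei. Both nuclei preparations lay below whole sperm in 6 of the 10 tested markers and above it in 4, the direction of Cd37. Besides Cx3cr1 and Itgax, those above were H2-Aa at 15.7, 4.05 and 3.47 CPM and Itgam at 14.3, 3.90 and 2.08 CPM. The part of leukocyte RNA in the levels of Cd37 and Cd53 was not tested.

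The TspanC8 tetraspanins escort the protease ADAM10 to the cell surface. Of the 6 members, 4 were tested, 2 of them lay below 0, the median log2 fold change was -0.72 and none was called. Tspan15 (chr10:62185396-62231251) was counted in every preparation, with 85, 58 and 90 counts, or 16.2, 8.70 and 10.4 CPM (log2 0.26 ± 2.56, adjusted p = 1.0). Whole sperm lay between the nuclei preparations. Tspan14 (chr14:40906445-40966807) had 53, 0 and 142 counts (log2 -1.70 ± 3.01, adjusted p = 0.978), and Tspan17 had 23, 0 and 5 counts (log2 1.89 ± 6.27, adjusted p = 1.0). Both were thus read in nuclei 1 and not in nuclei 2. Tspan5 had the reverse pattern, with 0, 5 and 46 counts (log2 -3.75 ± 5.53, edgeR adjusted p = 0.952). Scaled to library size, its whole-sperm level lay 12.7-fold above the pooled nuclei preparations (5.05 to 40.8). Tspan33 had 1 count, in nuclei 2, and was not tested.

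Upk1a and Upk1b, the tetraspanins of the urothelial membrane plaque, were read in nuclei 1 and whole sperm but not in nuclei 2. Upk1a (chr7:30603092-30612847) had 37, 0 and 104 counts, or 7.06, 0 and 12.01 CPM (log2 -1.76 ± 3.77, adjusted p = 0.989). Upk1b (chr16:38773184-38800328) had 2, 0 and 24 counts, with a fitted log2 fold change of -3.77 ± 5.77 (edgeR adjusted p = 0.959). Scaled to library size, its whole-sperm level lay 16.5-fold above the pooled nuclei preparations (4.10 to 144). Neither gene's difference passed the test. Prph2, which shapes the rim of photoreceptor discs, had 2 counts in nuclei 1 and was not tested.

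Among the remaining Tspan genes, 6 of 8 tested members lay below 0, with a median log2 fold change of -1.22 and none called. Tspan3 (chr9:56131725-56165477), a widely expressed member, had 137, 6 and 395 counts, or 26.1, 0.900 and 45.6 CPM. Whole sperm was highest, and nuclei 1 lay 29.1-fold above nuclei 2 (13.0 to 80.6). The fitted difference between fractions was log2 -1.76 ± 1.45 (adjusted p = 0.909). Tspan1 (chr4:116161869-116167601), an epithelial tetraspanin, had 168, 105 and 93 counts, or 32.1, 15.7 and 10.7 CPM. Both nuclei preparations were above whole sperm, but nuclei 2 was nearer to whole sperm than to nuclei 1 (log2 1.15 ± 1.85, adjusted p = 0.968), and scaling to the spike-ins gave log2 -0.28.

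Tspan12 and Tspan13 were the members whose nuclei preparations stood closest together. Tspan12 (chr6:21771395-21852515), a co-receptor in Norrin and Frizzled-4 signalling, had 27, 35 and 127 counts, or 5.15, 5.25 and 14.7 CPM, a nuclei mean of 5.20 ± 0.0667 (n = 2) that was 2.82-fold below whole sperm (log2 -1.49 ± 3.14, adjusted p = 0.989). Tspan13 (chr12:36014557-36042500) had 39, 53 and 129 counts, or 7.44, 7.95 and 14.9 CPM, a nuclei mean of 7.69 ± 0.356 that was 1.94-fold below (log2 -0.95 ± 2.75, adjusted p = 1.0). In both genes the difference between fractions exceeded that between the nuclei preparations. Both were grouped here for their close nuclei values, so this closeness, at n = 2 and with few counts, does not measure their own spread. The test used a spread pooled over genes.

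Tspan31 (chr10:127067280-127070264), the neighbour of the cell cycle kinase gene Cdk4, had 1, 3 and 90 counts, or 0.191, 0.450 and 10.4 CPM. Scaled to library size, whole sperm lay 30.9-fold above the pooled nuclei preparations (11.7 to 116), with a fitted log2 fold change of -4.93 ± 5.12 (edgeR adjusted p = 0.909). Like Cd53, Tspan31 was almost unread in nuclei. Tspan4 (chr7:141475240-141493427), a tetraspanin of migrasomes, had 88, 1 and 90 counts (log2 -0.30 ± 3.02, adjusted p = 1.0), so that the nuclei preparations differed 112-fold (19.6 to 4474) with whole sperm between them. Tspan7 (chrX:10485158-10596605), known from neurons, had 29, 0 and 22 counts (log2 0.12 ± 5.47, adjusted p = 1.0). Tspan9 (chr6:127961396-128143594), a platelet tetraspanin, had 29 counts in whole sperm and none in nuclei (edgeR adjusted p = 0.909). Its whole-sperm level was 6.55-fold above the floor of 3 counts per nuclei library, with the 29 counts taken as exact. Tspan18 had 2, 0 and 9 counts, Tspan11 had 5 counts and Tspan2 had 1 count, the last 2 in nuclei 1 alone, and these 3 were not tested.

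The nuclei preparations differed from each other in which tetraspanins they contained. Nuclei 1 held counts of 24 members and nuclei 2 of 16, although nuclei 2 was the deeper of the pair, and whole sperm held 24. Over all annotated genes the numbers with a count were 13897, 12259 and 14630. In all, 14 members were counted in every preparation. A further 12 of the 28 members with a count were read in only 1 nuclei preparation, of which 10 were read in nuclei 1 and 2, Tspan5 and Tspan33, in nuclei 2. The same pattern was seen in 28.7% of all genes with a count. Cd151, Tspan14, Upk1a, Tspan7 and Tspan17 were the members of this kind with more than 20 counts in nuclei 1, against 0 in nuclei 2.

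**Figure D3:**
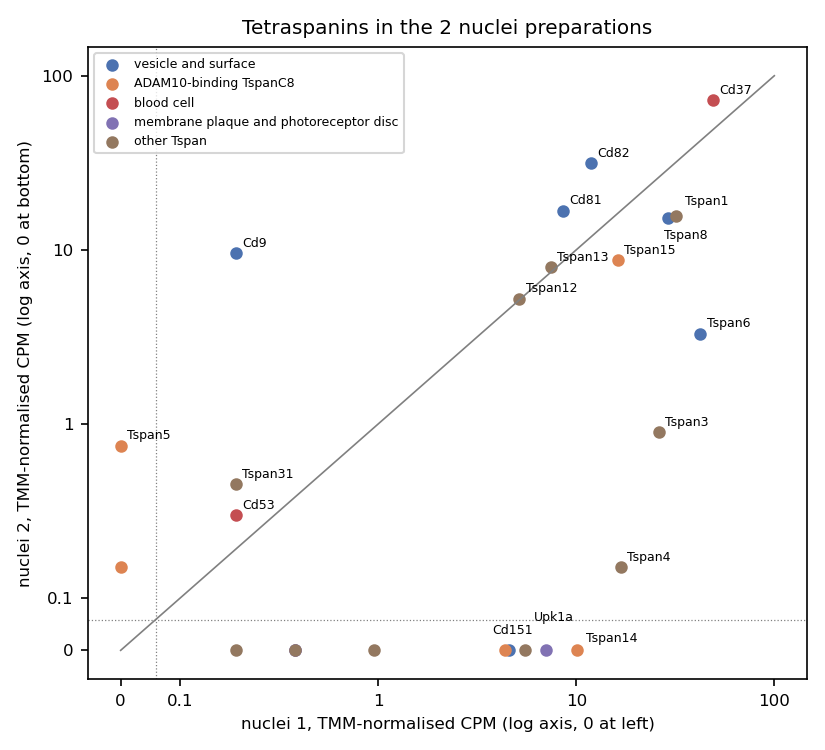
TMM-normalised CPM of each tetraspanin with a nuclei count in nuclei 1 (x axis) and nuclei 2 (y axis), both log axes with 0 drawn at the edge, coloured by role group, with a line of equal levels; 3 points at 0.382 CPM in nuclei 1 coincide. Tspan12, Tspan13 and Cd37 lie near the line, Cd9 far above it, and Tspan3, Tspan4, Tspan6 and the genes along the lower edge far below it.

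Levels of different genes were compared only in the deposited RPKM values, which scale reads by transcript length. In whole sperm the order began with Cd82 at 22.2 RPKM, Tspan3 at 16.7, Tspan8 at 13.99, Cd81 at 13.5 and Cd151 at 8.70, and continued with Cd37 at 6.84. Cd82 ranked 915th, and Tspan3 1264th, of the 15113 genes above 0 RPKM there, whose median was 1.89 RPKM. With 1 whole-sperm preparation, neighbours in this order could not be told apart. In nuclei 1 the order began with Tspan8 at 9.56, Tspan6 at 8.92, Cd37 at 8.89 and Tspan3 at 6.03 RPKM. In nuclei 2 it began with Cd37 at 24.2, Cd82 at 9.34, Tspan1 at 5.22 and Cd81 at 4.74 RPKM. Cd37 was thus the only member among the first 3 in both nuclei preparations. Dividing the counts by transcript length and library total instead kept these 6 whole-sperm genes in the same order. It put Cd37 first in nuclei 1 too, at 38.3 on this RPKM-like scale, before Tspan6 at 22.9 and Tspan8 at 20.2. The 2 scales did not differ by a constant factor: Tspan8 had 9.56 RPKM in nuclei 1 against 20.2 recomputed, while Cd37 had 8.89 against 38.3.

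In RPKM, both nuclei preparations lay below whole sperm in 19 of the 29 members above 0 anywhere (65.5%), against 50.0% of all such genes. Both lay above it in 2 (6.90%), again Cd37 and Tspan1, against 16.9%. The values for Tspan1 were 4.97, 5.22 and 3.56 RPKM. In this unit Tspan4 and Tspan15 joined the members below whole sperm, Tspan4 at 3.16, 0.0263 and 3.25 RPKM and Tspan15 at 1.36, 1.29 and 1.51 RPKM. Rom1, which had no count, was listed at 0.0154 RPKM in whole sperm.

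**Figure D4:**
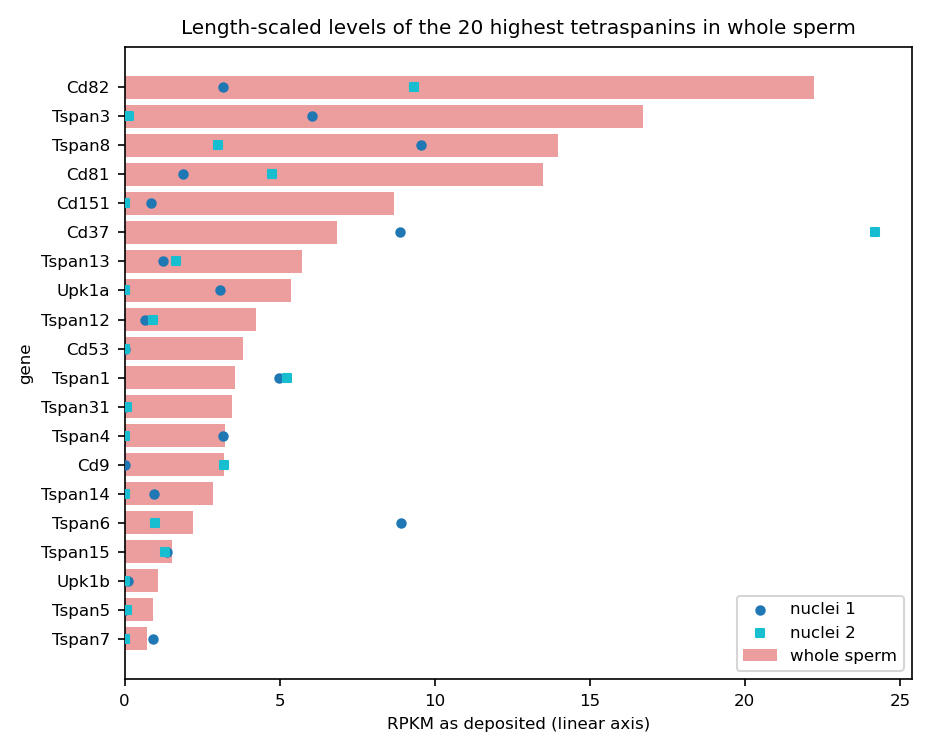
Deposited RPKM (linear axis) of the 20 tetraspanins highest in whole sperm, with whole sperm as bars and the nuclei preparations as points. Cd82, Tspan3, Tspan8 and Cd81 have the longest bars, and for Cd37 both nuclei points, 8.89 and 24.2, lie beyond the bar at 6.84.

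The make-up of the family's counts differed among preparations. Vesicle and surface genes took 34.6% of tetraspanin counts in nuclei 1 (95% interval 32.2% to 37.1%), 40.3% in nuclei 2 (37.5% to 43.0%) and 47.6% in whole sperm (45.9% to 49.4%). Blood cell genes took 17.7% (15.8% to 19.7%), 38.6% (35.9% to 41.3%) and 6.76% (5.90% to 7.71%). Cd37 held 258 of the 259 blood cell counts in nuclei 1 and 485 of 487 in nuclei 2, but 106 of 207 in whole sperm. TspanC8 genes took 10.99%, 5.07% and 9.25%, and plaque and disc genes took 2.80%, 0% (up to 0.292%) and 4.18%. The other Tspan genes took 33.9%, 16.1% and 32.2%. The make-up of nuclei 1 was thus closer to whole sperm in the blood cell, TspanC8, plaque and other groups, and that of nuclei 2 in the vesicle and surface group. Counts were concentrated on few genes. Cd37, Tspan6 and Tspan1 made up 44.2% of tetraspanin counts in nuclei 1, Cd37, Cd82 and Cd81 made up 63.9% in nuclei 2, and Cd82, Tspan3 and Cd81 made up 38.8% in whole sperm.

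**Figure D5:**
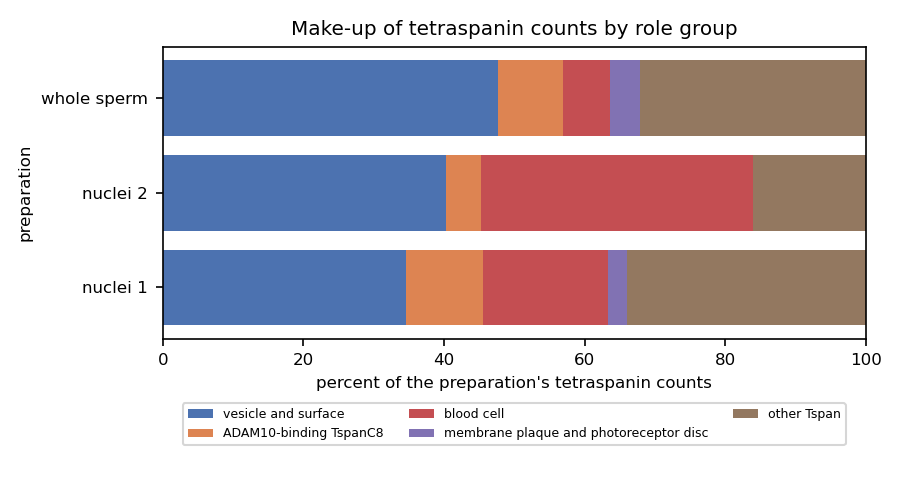
Percent of each preparation's tetraspanin counts (bars from 0 to 100) that fell on each role group, 1 bar per preparation. The blood cell segment is widest in nuclei 2 at 38.6%, against 17.7% for nuclei 1 and 6.76% for whole sperm.

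Proteins that work with tetraspanins were followed in 3 further lists. Of 17 tested partner genes, 11 lay below 0, the median log2 fold change was -1.59 and none was called. Epcam, an epithelial adhesion molecule that is also among the epithelial markers, had 25, 89 and 923 counts (log2 -3.55, adjusted p = 0.215). Itgb1, the integrin subunit common to most tetraspanin complexes, had 205, 35 and 579 counts (log2 -1.59, adjusted p = 0.909). Adam10, the cargo of the TspanC8 genes, had 61, 25 and 415 counts (log2 -2.64, adjusted p = 0.909), with both nuclei preparations below whole sperm. Itga4, the leukocyte integrin subunit, had both nuclei preparations above whole sperm at 446, 234 and 98 counts (log2 2.41, adjusted p = 0.839).

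Of 25 tested genes of vesicle biogenesis, 14 lay below 0, with a median log2 fold change of -0.22 and none called. Tsg101, a subunit of the endosomal sorting complex ESCRT-I, was abundant throughout at 4976, 9148 and 9618 counts, or 950, 1371 and 1111 CPM (log2 0.06, adjusted p = 1.0). Hgs, the ESCRT-0 subunit, had 222, 523 and 695 counts, and Rab7, a late endosomal GTPase, had 255, 243 and 482 counts. Vps37a, another ESCRT-I subunit, had 245, 5 and 574 counts, a split between nuclei preparations like that of Tspan3. The biogenesis genes as a list thus lay nearer to the median of all tested genes than the tetraspanins did, and the difference between the lists was not tested.

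The sperm side of gamete fusion, opposite the egg's Cd9, was represented by 7 tested genes, of which 4 lay below 0 with a median log2 fold change of -0.74 and none called. The sperm membrane protein gene 4930451I11Rik had 219, 144 and 50 counts, both nuclei preparations above whole sperm (log2 2.45, adjusted p = 0.909). Dcst1 had 86, 119 and 148 counts and nearly equal levels of 16.4, 17.8 and 17.1 CPM. Tmem95 had 15, 19 and 68 counts, and Izumo2 had 1, 33 and 4 counts. Spaca6, Llcfc1 and Dcst2 were not analysed here.

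Some members share sequence with other genes, and whether counting was strand-specific is not given in the sources used here, so reads of overlapping genes on opposite strands could not be told apart. In the GENCODE annotation of build mm10, 16 members overlap another gene and 11 do so in exons. The 3′ end of Cd37 shares 13 bases with Tead2 on the other strand, which had 125, 206 and 104 counts. Tspan4 shares 292 bases with Chid1 (373, 776 and 524 counts), and Tspan31 shares 641 bases with Cdk4 (0, 7 and 41 counts). Cd81 shares 948 bases with R74862, also on the other strand, which had 0, 0 and 14 counts. The near absence of Tspan4 from nuclei 2 did not extend to Chid1, whereas Cdk4 had few nuclei counts as Tspan31 did.

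The authors also deposited an adjusted whole-sperm column, in which every row equals the count of whole sperm minus the average of both nuclei counts, with negative results set to 0. It kept 2084 of the 3060 whole-sperm counts of tetraspanins (68.1%), against 40.8% of all whole-sperm counts. These percentages restate the counts given above, without scaling for depth. The 40.8% is a share of summed counts, in which the most abundant features weigh most. Cd53, Cd151, Tspan5, Tspan31 and Upk1b kept 94.7% to 99.0% of their counts, and Tspan9 and Cd63 kept all of theirs. Cd37, Tspan1, Tspan6 and Tspan17 were set to 0 in this column, although whole sperm had 106, 93, 60 and 5 counts of them.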

How the data were processed

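RNA-seq was made from 3 preparations of mouse sperm (nuclei 1, nuclei 2, whole sperm). The count tables deposited by the authors hold whole-number read counts per gene or assembled region, 1 column per preparation. The authors' deposited RPKM table scales reads by transcript length and library. A further column for whole sperm, which the authors deposited as adjusted counts, was treated as a score; it equalled whole sperm less mean nuclei in all 25610 rows within 0.5. Per the submitters' processing notes, the tools were TopHat2 2.0.12, HTSeq, Cufflinks 2.1.1, DESeq2, bedtools, SAMtools 0.1.19 and CASAVA 1.8.2, on build mm10. No source used here gives their order or the strand setting. Spike-ins, reads outside features (34.4% of the whole-sperm table) and ambiguous reads (1.97%) stayed out of library sizes.

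Counts were fitted with edgeR 4.0.16 (R 4.3.3; TMM, filterByExpr, quasi-likelihood test, Benjamini-Hochberg over 16720 genes and regions, threshold 0.05). With 1 residual degree of freedom, the single whole-sperm library was assumed to vary as nuclei do. Prior degrees of freedom were infinite, so spread was pooled over genes (common biological coefficient of variation 1.30). Standard errors were derived from the F statistic. Fold changes against 0 used a floor of 3 counts per library and took the whole-sperm count as exact. Intervals of shares are exact Clopper-Pearson 95%. Ratios resting on few counts, and their intervals, use the same method on the 2 counts, scaled by effective library sizes. Both these and the floors describe counting error alone, as no molecular identifiers are described. The script was tested on simulated data with known changes planted in abundant features. Changes of log2 -4 and 4 were called in 52% and 28% of cases, and those of -7 and 7 in 94% and 98%. Most tested tetraspanins were less abundant than those features, so a missing call does not show equal levels.

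Members and lists were chosen with earlier results of these data known. Named members were the 20 with the highest mean CPM, the 5 largest fold changes each way, the highest of each role group and any called; of each other list, up to 4 genes with the highest mean CPM and any called. Tspan18, Tspan11, Tspan2, Tspan33, Prph2, Cd63 and the defining blood cell markers were named outside this rule. Alternatives were other scalings and filters, DESeq2 1.42.0, limma 3.58.1 on log2(RPKM + 0.1) and log2(RPKM + 1), and each nuclei preparation alone. Positions and overlaps came from GENCODE, in which all 31 members were found. A marker gene is not reported here.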

Additional observations from a re-analysis of the deposited data

How the results depend on the processing

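No tetraspanin was called under any setting that gave a test; the lowest adjusted p was 0.188, with spike-in scaling, and 0.315 with DESeq2, which gave one for 13 members. Over all features, the 27 calls became 549 with spike-in scaling, 173 with DESeq2, and 0 with a mean of at least 10 CPM or with limma on either RPKM scale. Spike-in scaling moved the median of all tested genes to -1.48 and that of the tetraspanins to -2.86. In RPKM with a pseudocount of 0.1 these medians were -0.89 and -2.33. With a mean of at least 10 CPM, 6 of 10 tetraspanins lay below 0, with no share of all genes taken beside it. Leaving out a nuclei preparation moved the tetraspanins' median between -3.64 (without nuclei 1) and -0.90 (without nuclei 2), with 19 and 15 of 22 below 0; values of genes at 0 in the remaining preparation depend on the prior count.

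Shares of counts on tetraspanins, in the order nuclei 1, nuclei 2 and whole sperm, were 0.0541%, 0.0319% and 0.0791% without the 10 most abundant features, 0.249%, 0.164% and 0.840% relative to shared spike-in counts, and 0.0220%, 0.0117% and 0.0310% without the member with most counts.

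Log2 fold changes changed sign under some setting for Cd9, Tspan1, Tspan4, Tspan6, Tspan7, Tspan15 and Tspan17. Of the members above 0 in the main fit, Cd37 alone kept its sign under every setting. With 1 nuclei preparation left out, values ran from -5.32 to 0.21 for Cd9, -5.97 to 0.69 for Tspan4, -1.07 to 2.61 for Tspan6, -7.29 to 1.12 for Tspan7, -0.26 to 0.64 for Tspan15 and -5.19 to 2.89 for Tspan17. Spike-in scaling gave -0.28 for Tspan1, -1.29 for Tspan7 and -1.17 for Tspan15. Library size alone gave -0.0035 for Tspan7. Limma on RPKM gave -1.37 (pseudocount 0.1) and -0.32 (pseudocount 1) for Tspan7, and -0.18 and -0.11 for Tspan15. Apart from leaving out a preparation, the cause of these changes was not tested. No paired analysis was possible because the nuclei and whole-sperm preparations share fewer than 2 replicate numbers. The 9 untested members had between 0 and 11 counts in all; at this depth, absence and a low level could not be told apart for them.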

Other observations

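Assembled regions, which the authors listed beside the genes, lay within 10 kb of 2 tetraspanins. A region 1607 bases from Cd9 (build mm10, chr6:125496398-125496831), at the noncoding gene Gm26728, had 113 and 150 counts in the nuclei preparations and 25 in whole sperm, or 21.6, 22.5 and 2.89 CPM (log2 2.92, edgeR adjusted p = 0.909). Its nuclei preparations were nearly equal, whereas Cd9 itself had 1 and 64 counts in them. A region 139 bases from Tspan6 (chrX:133898568-133901206), at 4930570D08Rik, had 97, 416 and 219 counts, or 18.5, 62.4 and 25.3 CPM (log2 0.68, adjusted p = 0.98). Nuclei 2 was highest there, whereas Tspan6 had most counts in nuclei 1.

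Several tetraspanins are neighbours in the genome, and their counts did not follow one order. Cd151 and Tspan4 lie 3.8 kb apart, and both were all but unread in nuclei 2. In nuclei 1, Tspan4 had 88 counts and Cd151 had 24. Tspan11 and Tspan9 lie 7.4 kb apart, and Tspan11 was read in nuclei 1 alone and Tspan9 in whole sperm alone. Tspan18 and Cd82 lie 84.6 kb apart, with 11 and 750 counts over all preparations. Tspan32, which had no count, lies 33.1 kb from Cd81, which had 471.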
